A study of Mus musculus with 6 samples.

Results

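The genes described are the 6 members of the platelet-derived growth factor (PDGF) system of the mouse: the receptor genes Pdgfra and Pdgfrb and the ligand genes Pdgfa, Pdgfb, Pdgfc and Pdgfd. They were taken by gene name from a table of 19353 genes, and all 6 had a row and passed the filter on low counts. RNA came from purified primary mesenchymal stem cells of wild-type mouse bone marrow, a cell population able to form bone, cartilage and fat. For 3 libraries (MCH) these cells received melanin-concentrating hormone at 0.5 µM, and for 3 libraries (Control) they did not. All 6 were under osteogenic induction in medium with 10% fetal bovine serum, 10 mM β-glycerophosphate, 50 µM ascorbic acid and the glucocorticoid dexamethasone at 100 nM. Sampling was on day 9 by the sample titles but on day 8 by the series design. Whether replicates were separate mice or cultures is not stated, and the p-values therefore describe the spread among these libraries, part or all of which may be technical.

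PDGFs are dimers of related polypeptide chains held together by disulphide bonds. The A, B and C chains bind the receptor encoded by Pdgfra, and the B and D chains bind that encoded by Pdgfrb. Both receptors are tyrosine kinases that pair up when a ligand binds, phosphorylate each other and recruit adaptor proteins, and in stromal cells they drive division and migration. The A and B chains are trimmed inside the cell, whereas the C and D chains leave it in a latent form and are activated by proteases outside. In mouse marrow, the receptor encoded by Pdgfra and the surface antigen Sca-1 are used together to isolate mesenchymal stem cells.

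With MCH both receptor genes fell, and none of the 4 ligand genes passed the test. The ligand genes missed it also without adjustment in edgeR, and no ligand gene was called by DESeq2 or limma-voom. DESeq2 gave Pdgfb no adjusted p, so Pdgfb could not be called there. Pdgfra stood at 61.9% and Pdgfrb at 55.7% of the Control level (95% intervals 55.0% to 69.5% and 49.3% to 63.0%). Of the 6 members, 2 were thus called lower, against 5.40% of all 13662 genes tested, and 0 were called higher, against 3.64% of all genes (called at an adjusted p under 0.05 in edgeR's quasi-likelihood test over all genes). In either direction 9.04% of genes were called. In bulk RNA, fewer cells of a type and less RNA per cell cannot be told apart. Read counts scaled to TMM library size (CPM) did not overlap between the groups for 5 of the 6 members, 2 lower and 3 higher with MCH, where 32.8% of all genes did not overlap, 16.6% lower and 16.1% higher with MCH. Earlier results of these data had already named both receptor genes as lower. The libraries held 16521980 to 18803949 counted reads. On the first principal component the MCH libraries were at -8.82 (replicate 1), -29.1 and -22.1 and the Control libraries at 15.7 to 22.5.

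**Figure D1:**
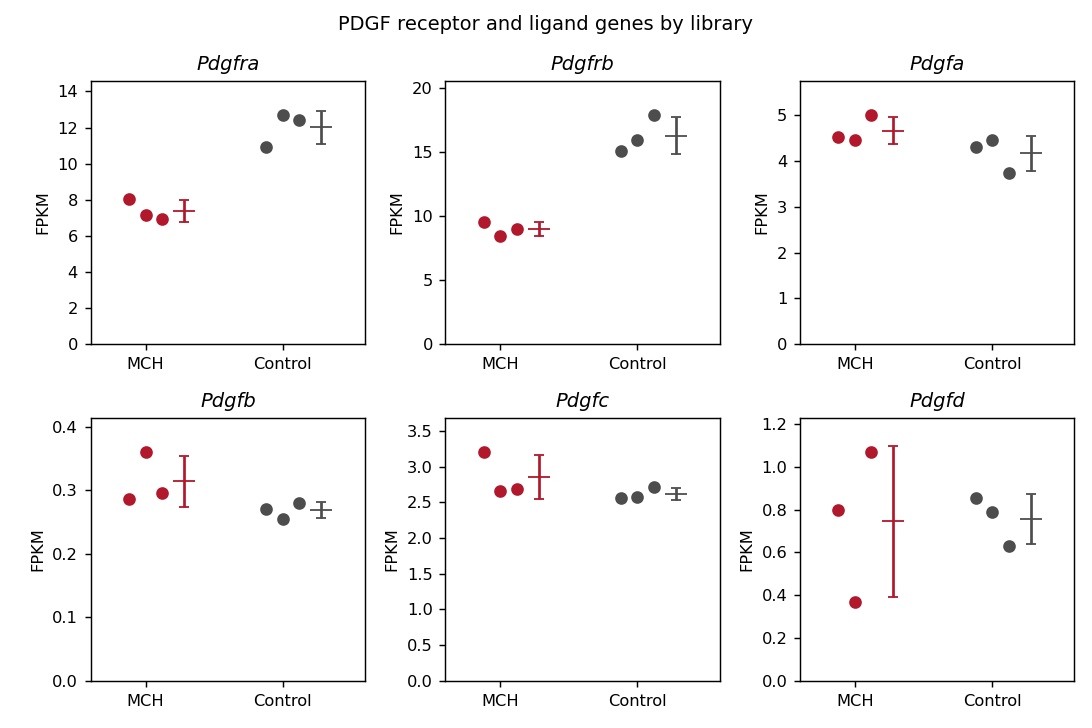
FPKM (y axis, from 0) of each PDGF gene in the 3 MCH libraries (left, red) and the 3 Control libraries (right, grey); each point is a library, and the dash with its bar is the mean ± SD. Pdgfra and Pdgfrb lie lower in every MCH library than in any Control library, while the groups of the 4 ligand genes lie close to each other or overlap.

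Pdgfra lies on the plus strand of chromosome 5 at 75152292 to 75198215 in the deposited table (GRCm38). It encodes the receptor with the broader choice of ligands and had the most reads of the 6 genes. Pdgfra had 2019, 1933 and 1805 reads with MCH, against 2706, 3567 and 3174 reads in Control. Its length-scaled level, in FPKM (fragments scaled to gene length and library size), was 8.05, 7.14 and 6.92 with MCH, against 10.9, 12.7 and 12.4 in Control. The highest MCH library thus stayed below the lowest Control library. The log2 fold change was -0.69 ± 0.07 (SE, n = 3 each; adjusted p = 0.00245), the 84th smallest p of the genes tested.

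Pdgfrb lies on the plus strand of chromosome 18 at 61045150 to 61085061. Its product is the receptor of pericytes and other perivascular cells and binds the B and D chains. Pdgfrb had 1231, 1176 and 1202 reads with MCH, against 1914, 2298 and 2347 reads in Control. Its level was 9.56, 8.46 and 8.98 FPKM with MCH, against 15.1, 15.9 and 17.8 FPKM in Control. The 3 MCH libraries lay within a narrow range, and the groups were far apart. The log2 fold change was -0.84 ± 0.08 (adjusted p = 0.00123), the 55th smallest p. Among genes called lower, 263 fell by at least as much as Pdgfra and 199 by at least as much as Pdgfrb. In the authors' deposited table, from a test of their own, the q-values were 0.000156 for Pdgfra and 5.33e-06 for Pdgfrb.

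Both receptor genes passed in each of 6 fits that lacked 1 library (adjusted p at most 0.0167 for Pdgfra and 0.0117 for Pdgfrb). Without MCH replicate 1 the log2 fold changes were -0.74 and -0.87. Pdgfrb had the lower fold change, but a difference between the 2 receptor genes did not pass a test of its own. The log2 ratio of Pdgfrb to Pdgfra reads was -0.71, -0.72 and -0.59 with MCH, against -0.50, -0.63 and -0.43 in Control. The groups overlapped, and the mean difference was -0.15 (exact permutation test, two-sided, p = 0.2, with 0.1 the smallest p that 3 against 3 allows). The sum of the FPKM of both receptors was 17.6, 15.6 and 15.9 with MCH, against 26.0, 28.6 and 30.2 in Control.

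**Figure D2:**
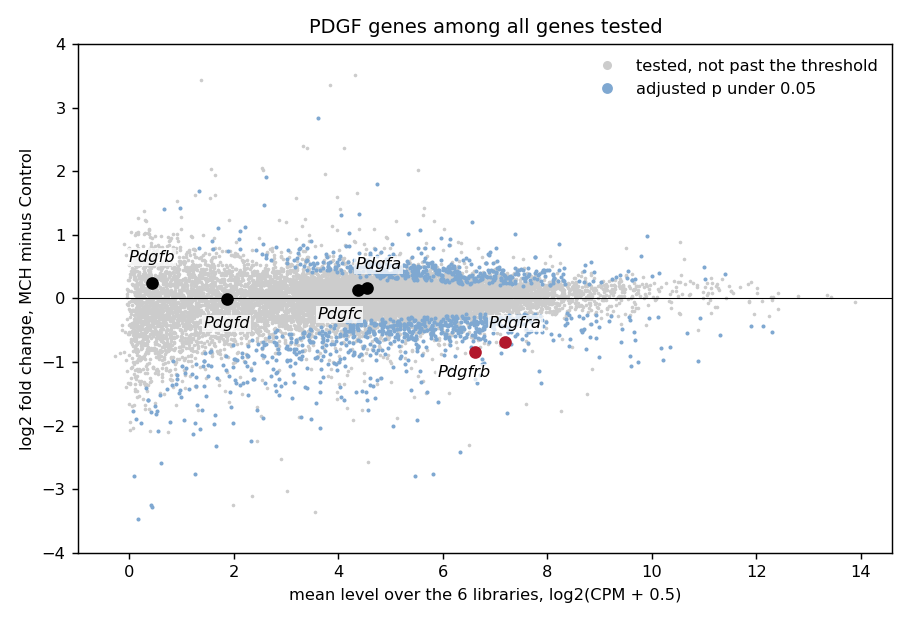
Each point is 1 of the 13662 genes tested, by its mean level over the 6 libraries (x axis, log2 of CPM + 0.5) and its log2 fold change, MCH minus Control (y axis); blue points passed the threshold, and the PDGF genes are named, in red where called. The receptor genes lie at -0.69 and -0.84, below the dense band of genes that did not pass, and the ligand genes lie between -0.01 and 0.24, within it.

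Pdgfa was the most abundant of the ligand genes. It lies on the minus strand of chromosome 5 at 138976014 to 138997370 and encodes the A chain, which signals through the receptor of Pdgfra alone. Pdgfa had 395, 421 and 454 reads with MCH, against 371, 438 and 334 reads in Control. Its level was 4.52, 4.46 and 4.99 FPKM with MCH, against 4.30, 4.46 and 3.74 FPKM in Control. Control replicate 2 reached the lowest MCH library in FPKM, while in CPM the groups lay just apart. The log2 fold change of 0.17 ± 0.10 (adjusted p = 0.327) did not pass, with a 95% interval of -0.07 to 0.41. The whole interval lay above the values of both receptor genes.

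Pdgfc, on the plus strand of chromosome 3 at 81036416 to 81214040, encodes the C chain, a latent ligand of the same receptor. Pdgfc had 397, 356 and 347 reads with MCH, against 313, 359 and 343 reads in Control. Its level was 3.20, 2.66 and 2.69 FPKM with MCH, against 2.56, 2.58 and 2.71 FPKM in Control. MCH replicate 1 lay above all others, and the other 5 libraries lay close together and overlapped in FPKM. The log2 fold change was 0.13 ± 0.10 (adjusted p = 0.417; 95% interval -0.09 to 0.35).

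Pdgfb and Pdgfd, whose products can bind the receptor of Pdgfrb, were the lowest of the family. Pdgfb, on the minus strand of chromosome 15 at 79995900 to 80014808, encodes the B chain, made chiefly by endothelial cells and platelets. It had 14, 19 and 15 reads with MCH, against 13, 14 and 14 reads in Control, or 0.286, 0.360 and 0.295 FPKM with MCH, against 0.270, 0.255 and 0.280 FPKM in Control. In reads the groups met at 14, and in CPM and FPKM they lay apart by less than 1 read. At this depth its 95% interval for the log2 fold change of 0.24 ± 0.29 ran from -0.44 to 0.92 (adjusted p = 0.644), so a change of moderate size in either direction was not detectable. Pdgfd, on the plus strand of chromosome 9 at 6168612 to 6378843, encodes the D chain. It had 56, 28 and 78 reads with MCH, against 59, 62 and 45 reads in Control. The MCH libraries held both the lowest and the highest value of Pdgfd and enclosed all Control libraries. Its log2 fold change was -0.01 ± 0.36 (adjusted p = 0.984; 95% interval -0.85 to 0.82). Without MCH replicate 2 the Pdgfd value was 0.31 and without MCH replicate 3 it was -0.38, so single libraries set its sign. In the authors' deposited table the q-values of the 4 ligand genes lay between 0.865 and 1.

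Per length, the order of the levels was the same in both groups: Pdgfrb, Pdgfra, Pdgfa, Pdgfc, Pdgfd, Pdgfb. Pdgfrb averaged 9.0 ± 0.551 FPKM with MCH and 16.3 ± 1.43 FPKM in Control (SD, n = 3 each). Pdgfra averaged 7.37 ± 0.599 FPKM with MCH and 12 ± 0.930 FPKM in Control. Pdgfa averaged 4.65 ± 0.293 and 4.17 ± 0.379 FPKM in MCH and Control, and Pdgfc 2.85 ± 0.305 and 2.62 ± 0.0813 FPKM. Pdgfd averaged 0.745 ± 0.353 FPKM with MCH and 0.756 ± 0.115 FPKM in Control, and Pdgfb 0.314 ± 0.0402 and 0.268 ± 0.0127 FPKM. In the MCH group the lowest library of Pdgfd came close to the highest of Pdgfb, while the other neighbours in this order did not overlap in either group. Counts divided by the deposited FPKM gave the same length for a gene in every library. Over 12754 genes, the median of that length was 1.23 times the annotated exon length (quartiles 1 and 1.57). That length was 1.49 times the annotated one for Pdgfra, 1.4 times for Pdgfrb and 0.701 times for Pdgfb. With annotated exon lengths (GENCODE M21) in its place the order stayed the same, and the receptor levels, as CPM per kilobase, were 12.6 for Pdgfrb and 11 for Pdgfra with MCH, against 22.8 and 17.9 in Control.

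The quotient of ligand and receptor transcripts did not overlap between the groups. It holds the fall of the receptor genes given above and is not a separate result, since the ligand sums themselves overlapped. The summed FPKM of the 4 ligand genes was 8.80, 7.85 and 9.05 with MCH, against 7.99, 8.09 and 7.36 in Control. Divided by the sum of the receptors, this was 0.500, 0.503 and 0.569 with MCH, against 0.307, 0.283 and 0.243 in Control. The lowest MCH library lay above the highest Control library in this quotient. The log2 ratio of Pdgfa to Pdgfra reads was -2.35, -2.20 and -1.99 with MCH, against -2.87, -3.03 and -3.25 in Control, and for Pdgfc to Pdgfra it was -2.35, -2.44 and -2.38, against -3.11, -3.31 and -3.21. Both differences, 0.87 and 0.82, had the smallest p that the exact permutation test allows (p = 0.1; 0.15 when adjusted over the 3 ratios tested). The quotient and these last ratios were chosen after the values had been seen. The ratios, too, hold the fall of Pdgfra given above and are not a separate result.

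The promoter of Pdgfra is shown because this gene fell, and stretches before Pdgfa and Pdgfc because these are the more abundant ligand genes and were not called. All are from RefSeq on GRCm38.p6, read 5′ to 3′ on the strand of the gene, and capitals mark CpG pairs. Pdgfra, chr5:75152001-75152250, is the stretch just before the RefSeq transcript start, Pdgfc is chr3:81036166-81036415, and Pdgfa is chr5:138995038-138995194, which lies inside the deposited span of Pdgfa, ends just before the first base of a shorter GENCODE transcript and stops short of the RefSeq start of its window.
Pdgfra: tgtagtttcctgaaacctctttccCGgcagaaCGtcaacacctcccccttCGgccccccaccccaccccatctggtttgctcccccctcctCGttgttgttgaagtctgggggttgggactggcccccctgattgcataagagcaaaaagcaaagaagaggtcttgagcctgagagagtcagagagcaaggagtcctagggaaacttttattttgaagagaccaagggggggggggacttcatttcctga
Pdgfc: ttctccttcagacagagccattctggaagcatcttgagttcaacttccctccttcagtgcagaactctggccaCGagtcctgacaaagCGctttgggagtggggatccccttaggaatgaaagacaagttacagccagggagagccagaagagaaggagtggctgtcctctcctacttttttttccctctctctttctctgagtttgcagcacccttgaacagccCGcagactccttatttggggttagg
Pdgfa: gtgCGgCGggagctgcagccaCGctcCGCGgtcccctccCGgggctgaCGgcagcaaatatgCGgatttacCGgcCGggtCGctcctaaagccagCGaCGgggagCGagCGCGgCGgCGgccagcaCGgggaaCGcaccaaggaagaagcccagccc
The printed stretches of Pdgfra and Pdgfc hold 4 and 3 CpG pairs in 250 bases, and the shorter one of Pdgfa holds 20 in 157. Over windows of 300 bases around the transcript start, Pdgfra had 5 CpG pairs and 51.0% G or C, Pdgfc 8 and 55.0%, and the Pdgfa window printed from 37 and 73.3%, where the median of 32851 such windows was 7 pairs and 52.7%. Of all windows, 43.6% had 5 pairs or fewer and 5.58% had 37 or more. Of the 6 motifs searched on both strands, neither Pdgfra nor Pdgfc held any. The TATA box was searched as TATAAA and was present in 13.6% of all windows. The CCAAT box, searched by those letters, was present in 37.4%, and the GC box, searched as GGGCGG, in 35.7% of windows. The AP-1 motif was searched as TGANTCA and found in 7.81% of windows. The cyclic AMP response element, searched as TGACGTCA, was in 1.79% of windows. The Egr1 motif, searched as GCGNGGGCG, which can overlap a GC box, was in 5.55% of windows. RefSeq gives 2 windows for Pdgfa. The one not printed from held 24 CpG pairs, 67.0% G or C and a GC box on the plus strand 60 bases before its start. The window printed from held 2 GC boxes on the minus strand, 93 and 86 bases before the RefSeq start, and thus after the stretch printed above. The Pdgfd window held a TATA box 160 bases before its start. RefSeq windows matched 4 of the 6 members. None matched Pdgfrb, the other receptor gene that fell, or Pdgfb, so the promoters of these genes were not examined. A match or its lack describes these letters and not a bound factor.

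A long non-coding gene on the opposite strand, 6330403L08Rik, begins within the Pdgfa stretch shown and shares 813 exon bases with Pdgfa. It was picked out after its values were seen. It had 173, 181 and 163 reads with MCH, against 239, 279 and 265 reads in Control, and the groups did not overlap. Its log2 fold change was -0.58 ± 0.10 (adjusted p = 0.0155), so it fell while Pdgfa did not pass. Dropping MCH replicate 3 (adjusted p = 0.0731), Control replicate 2 (0.0544) or Control replicate 3 (0.0703) ended that call. The strand setting of the counting is not given in the sources used here, so reads in the shared bases cannot be assigned to either gene. The antisense genes that overlap exons of Pdgfra had 2 to 26 reads per library, few beside those of Pdgfra, and no annotated gene overlaps Pdgfrb.

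The processing list held genes that process PDGF chains or bind PDGF or its receptors outside the cell, and the receptor-like gene Pdgfrl. Of 10 tested of 12 listed, 3 fell and 0 rose, beside 5.40% and 3.64% of all genes (median log2 fold change -0.10, against 0.00 over all genes tested). Lrp1, a large endocytic receptor that associates with the receptor encoded by Pdgfrb, was at 896, 734 and 765 CPM with MCH, against 1416, 1615 and 1682 CPM in Control. No MCH library of Lrp1 came near a Control library, and the log2 fold change was -0.98 ± 0.10 (adjusted p = 0.00236). Pdgfrl, which encodes a protein resembling the ligand-binding part of the receptors, stood at 67.1, 67.6 and 68.4 CPM with MCH, against 97.6, 96.4 and 92.1 CPM in Control. Its groups were tight and apart (-0.49 ± 0.06, adjusted p = 0.00364). Furin, a protease that trims the A and B chains, fell by 0.48 ± 0.10 on the log2 scale (adjusted p = 0.0244). Furin no longer passed when MCH replicate 2, MCH replicate 3, Control replicate 1 or Control replicate 3 was dropped (adjusted p of 0.0582 to 0.103). Of the proteases that activate the latent ligands, Plat for the C chain and Plau for the D chain had log2 fold changes of 0.02 ± 0.07 and 0.03 ± 0.10 (adjusted p = 0.909 and 0.884). St14, another listed protease gene, had 3, 3 and 0 reads with MCH, against 7, 6 and 12 in Control, and was not tested. Sparc, a matrix protein that binds the B chain, averaged 2044 ± 27.9 CPM with MCH and 2024 ± 35.6 CPM in Control (SD, n = 3 each).

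Of 30 genes that relay the signal of the receptors inside the cell, all tested, 2 fell and 0 rose (median -0.06), close to the 5.40% of all genes called lower. The transcription factor gene Stat3 fell by 0.40 ± 0.07 (adjusted p = 0.0189), but missed the threshold when MCH replicate 2 or 3 or Control replicate 2 or 3 was dropped (adjusted p up to 0.0824). The kinase gene Mapk3 passed by a small margin (adjusted p = 0.0499) and in 0 of the 6 fits that lacked a library (adjusted p up to 0.123). The adaptor genes Grb2 (0.25 ± 0.36) and Shc1 (-0.56 ± 0.43) and the phospholipase gene Plcg1 (-0.53 ± 0.21) did not pass. Of 9 tested genes of 10 that attenuate the receptors, 1 fell and 0 rose (median 0.11), a count too small to set apart from the 5.40% of all genes called lower. This was Ptpn1, a phosphatase that removes phosphate from receptor tyrosines, with a fall of 0.31 ± 0.05 (adjusted p = 0.0150). Ptpn1 missed the threshold when MCH replicate 3 or Control replicate 2 or 3 was dropped (adjusted p up to 0.0810).

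Of 17 genes known to be induced by PDGF in cultured fibroblasts, all tested, 6 fell and 1 rose, beside 5.40% and 3.64% of all genes (median -0.19). Other growth factors and serum induce most of them too, and several had been named as changed in earlier results of these data. Has2, which encodes the hyaluronan synthase that PDGF induces, had the lowest fold change of the list, at 10.8, 9.99 and 10.7 CPM with MCH, against 29.6, 31.9 and 26.1 CPM in Control. Every MCH library of Has2 was below every Control library, with a log2 fold change of -1.48 ± 0.11 (adjusted p = 0.000466). The early response genes Fos (-0.95 ± 0.10), Fosb (-0.91 ± 0.08) and Egr1 (-0.53 ± 0.06) fell as well. Junb, of the same class, fell by 0.56 ± 0.09, a call that ended when MCH replicate 3 was dropped (adjusted p = 0.0570), and the chemokine gene Cxcl1 fell by 0.29 ± 0.07, called in 0 of the 6 fits that lacked a library (adjusted p up to 0.148). The chemokine gene Ccl2 moved the other way, at 138, 152 and 144 CPM with MCH, against 91.2, 92.6 and 87.1 CPM in Control (0.68 ± 0.06, adjusted p = 0.00130). Myc, another classical PDGF-induced gene, stood at 126 CPM in both groups.

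**Figure D3:**
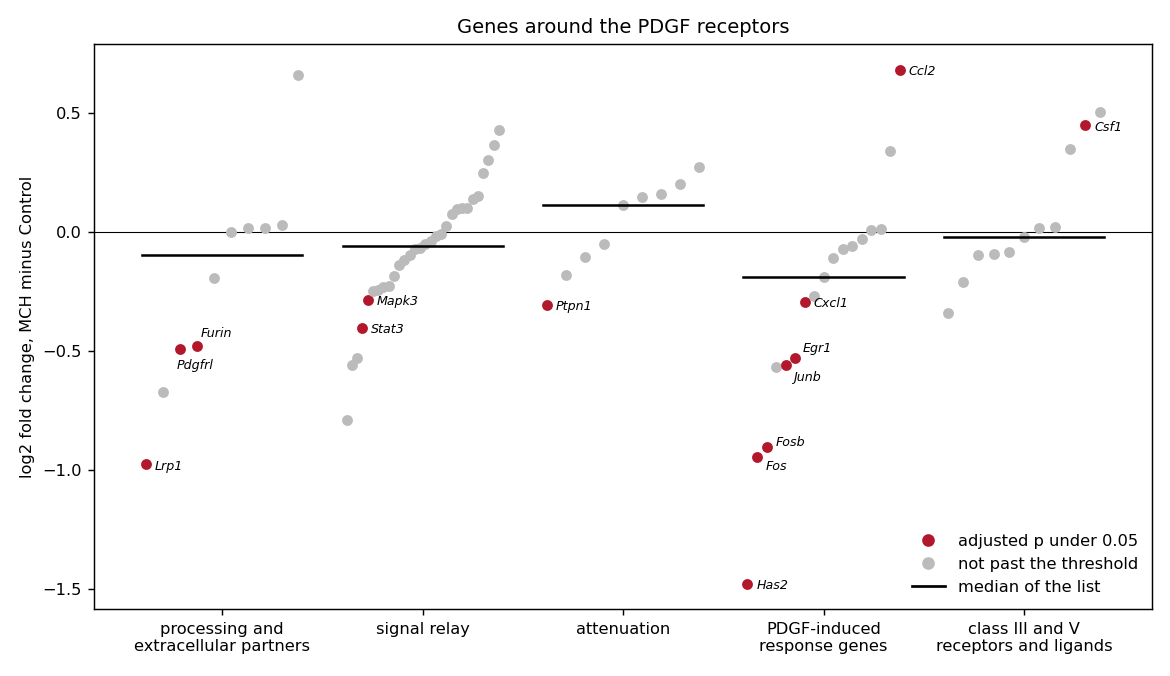
Log2 fold change, MCH minus Control (y axis), of each tested gene of the 5 lists (x axis, sorted within each list); red points passed the threshold and are named, and black bars are list medians. The medians lie between -0.19 and 0.11, and the lists hold 0 to 6 genes called lower.

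Among the relatives of the PDGF receptors, the class III and class V receptor tyrosine kinases with their ligands, 1 of 11 tested genes of 15 listed rose and 0 fell (median -0.02), near the 9.04% of all genes called in either direction. It was Csf1, the ligand of the class III receptor encoded by Csf1r, at 213, 195 and 202 CPM with MCH, against 147, 150 and 151 CPM in Control (0.45 ± 0.06, adjusted p = 0.00463). At an unadjusted p under 0.05, edgeR gave 1 gene lower in this list, and 1, 2 and 1 genes higher in the processing, relay and attenuation lists. In those directions DESeq2 called 1 relay gene and otherwise DESeq2 and limma-voom called 0 genes. Vegfa (-0.21 ± 0.08) and Vegfd (-0.09 ± 0.07), ligands of the same cystine-knot family as PDGF, did not pass. The receptor genes Flt3, Kdr and Flt4 had 0 to 12 reads per library and were not tested. The tested receptor genes Csf1r (0.50, adjusted p = 0.316) and Flt1 (-0.10, adjusted p = 0.720) did not pass, and Kit was not analysed here.

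Genes most like each receptor gene were taken by the root mean square distance of their centred log2 CPM over the 6 libraries, among 9475 genes of at least 10 CPM. For Pdgfra the nearest were Gda and C3, at distances of 0.035 and 0.043. Their log2 fold changes were -0.67 and -0.66. For Pdgfrb the nearest were Mettl7a1, Ltbp2 and Xdh, at 0.054, 0.061 and 0.062, with log2 fold changes of -0.87, -0.74 and -0.80. Pdgfrb ranked 79th in likeness to Pdgfra, at a distance of 0.103. For Pdgfa the nearest was Mff at 0.022 and for Pdgfc it was Tusc3 at 0.023, and neither of these was called. Pdgfd, the most scattered member, had no gene nearer than Ccdc127 at 0.131.

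The stromal label was checked against markers. Of 10 mesenchymal stromal genes all were tested, 2 fell and 0 rose, beside 5.40% and 3.64% of all genes. Their summed level, here and below scaled to the library total without TMM, was 1771 to 1862 CPM with MCH and 2244 to 2340 CPM in Control. Most of that gap lay in Ly6a, at 463 to 596 CPM with MCH and 935 to 1094 CPM in Control. Itgb1, the other gene of similar level, was at 804 to 904 CPM with MCH and 783 to 872 CPM in Control. Ly6a, which encodes Sca-1, fell by 0.90 ± 0.11 (533 ± 66.8 CPM with MCH and 997 ± 84.8 CPM in Control; adjusted p = 0.00364), and how reads shared with related Ly6 genes were counted is not given in the sources used here. Vcam1, at 22.3 to 26.4 CPM with MCH, against 14.3 to 20.1 CPM in Control, had a log2 fold change of 0.48 ± 0.14 (adjusted p = 0.0745) and was the 1 stromal gene higher at an unadjusted p under 0.05. Thy1, Eng, Cd44, Itgb1, Lepr, Prrx1 and Cxcl12 did not pass, and Thy1, a defining marker, was low, averaging 2.55 ± 0.795 CPM in MCH and 2.98 ± 0.101 CPM in Control libraries. Lepr was lower still, averaging 0.576 ± 0.248 CPM in MCH and 0.946 ± 0.0904 CPM in Control libraries. Levels of Nt5e were low as well, averaging 4.85 ± 0.248 CPM in MCH and 8.09 ± 1.58 CPM in Control libraries. Nt5e fell by 0.74 ± 0.18, which passed in 1 of the 6 fits that lacked a library (adjusted p up to 0.134). Of 7 osteoblast genes in the table, 4 of the 5 tested fell, beside 5.40% of all genes. Among them were Alpl and Spp1, at -1.28 and -1.06. The other two were Col1a1, which missed the threshold when MCH replicate 2 or 3 or Control replicate 2 or 3 was dropped (adjusted p up to 0.0976), and Col1a2, which missed it without MCH replicate 3 (adjusted p = 0.0560). Without MCH replicate 3, 2 of the 5 thus passed. The osteoblast genes Sp7 and Bglap had 0 to 4 reads per library. The osteoblast sum was 7935 to 9099 CPM with MCH and 11691 to 12927 CPM in Control, most of it Col1a1 and Col1a2. The part of these lists in the fall of the receptor genes was not tested.

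Pericytes carry the receptor encoded by Pdgfrb. Of 7 tested pericyte and smooth muscle genes of 10, 1 rose (Tagln) and 1 fell (Notch3), beside 3.64% and 5.40% of all genes. At an unadjusted p under 0.05 in edgeR, 4 of the 7 were higher and 1 was lower. Acta2, Cnn1 and Mcam, among these 4, did not pass after adjustment (adjusted p = 0.0768, 0.0913 and 0.081). Their log2 fold changes were 0.255, 0.245 and 0.331, and in CPM every MCH library lay above every Control library. Tagln and Notch3 each passed in 2 of the 6 fits that lacked a library (adjusted p up to 0.121 for Tagln and 0.150 for Notch3). The summed level of that list was 1767 to 1873 CPM with MCH and 1494 to 1613 CPM in Control, most of it Acta2. The pericyte genes Rgs5, Abcc9 and Kcnj8 had 0 to 7 reads per library, while Cspg4 had 16 to 49 and Mcam 258 to 393. The part of this list in the fall of Pdgfrb was not tested. Endothelial and platelet genes were listed because those cells make the B chain. Of 2 and 3 tested, 0 were called, beside 9.04% of all genes (0 also at an unadjusted p under 0.05). Their sums were 2.43 to 4.88 and 22.0 to 23.5 CPM with MCH, against 3.15 to 4.27 and 20.2 to 24.4 CPM in Control. Cldn5 had 0 to 1 and Pf4 0 to 11 reads per library. Others were higher: Pecam1 had 28 to 67 reads and Itga2b, which made up most of the platelet sum, 263 to 358. Ptprc, the pan-leukocyte gene, had 0 to 2 reads. Of 8 macrophage genes 3 were tested and 0 called, also without adjustment, beside 9.04% of all genes called in either direction. They were summed at 7.24 to 27.6 CPM with MCH and 6.14 to 11.1 CPM in Control, and the highest value was MCH replicate 3, with 50 reads of Adgre1. Without that library the log2 fold changes were -0.65 for Pdgfra and -0.85 for Pdgfrb.

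**Figure D4:**
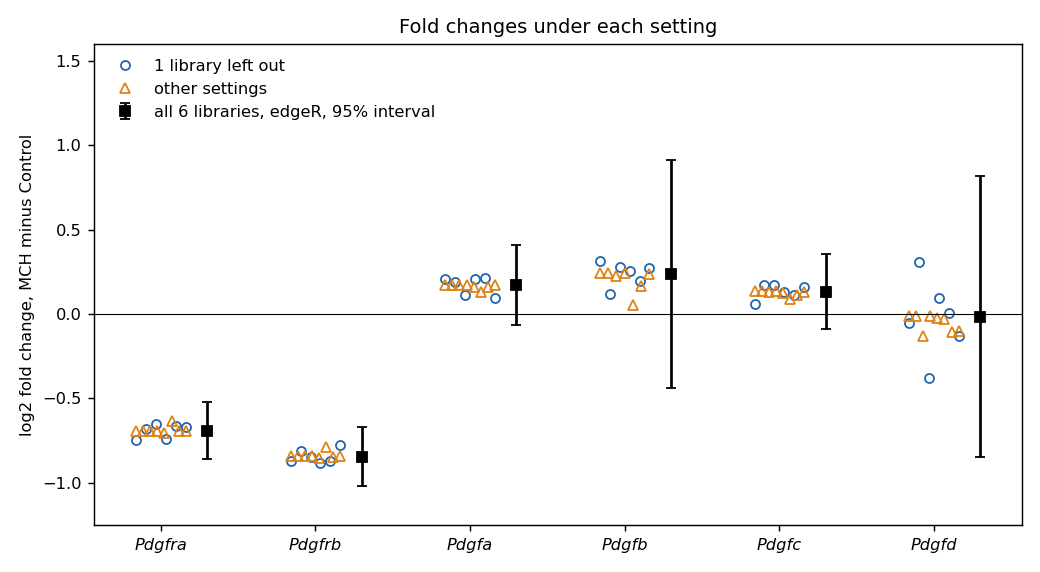
Log2 fold change, MCH minus Control (y axis), of each PDGF gene (x axis) with 1 library left out (circles), under other scalings, filters, tools and units (triangles), and with all 6 libraries by edgeR with its 95% interval (squares). Pdgfra stays between -0.75 and -0.64 and Pdgfrb between -0.88 and -0.77, whereas Pdgfd takes values on both sides of 0.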

How the data were processed

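RNA-seq was made from polyadenylated RNA of 6 samples, 3 MCH and 3 Control, and libraries followed a VAHTS kit, per the labels' protocols. Per the file headers, the deposited table gives for each gene the read count and the FPKM in every library, mean FPKM by group, and a p-value and q-value from a comparison the authors ran. The submitters' processing notes name GRCm38 (mm10) as the build. For the aligner, the counting tool, its strand setting, the annotation release and the authors' test, nothing is given in the sources used here. Names of the MCH columns hold MCH. Those of the remaining 3 columns hold no group name, and they were read as Control since only 1 other group exists, so each direction rests on this reading. Replicate numbers come from the titles.

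The test of the counts used edgeR 4.0.16 (R 4.3.3), with TMM scaling, filterByExpr (count 10, total 15) and a robust quasi-likelihood fit on group, two-sided, with Benjamini-Hochberg adjustment over 13662 genes at 0.05. Log2 fold changes are MCH minus Control. Sums over marker lists and levels per kilobase were scaled to the library total without TMM, and CPM of single genes with TMM. Each SE is the unshrunken coefficient divided by the square root of the F statistic, and intervals use the fit's degrees of freedom. The steps were tested on simulated counts. No library was a copy of another (chi-square over its degrees of freedom 16.0 to 27.1 between replicates). Gene IDs were matched to an annotation table for 19250 of 19353 rows. Listed genes with no row in the table, Kit among them, were not used here, and protein sequences were not analysed here.

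The members, the 5 pathway lists and the markers were chosen with earlier results of these data known. Named genes are the members, the called genes with the smallest p per list (at most 5, with Junb and Cxcl1 added after their values were seen), the 3 most similar genes per member and the markers; not every gene this takes is reported, and genes named as not called are examples. Alternatives were RLE scaling, DESeq2 1.42.0, limma-voom (limma 3.58.1), no filter, at least 50 counts in 3 libraries, limma on log2(FPKM + 1) and log2(FPKM + 0.1), a replicate block, and dropping each library in turn. The annotated exon lengths and the ligand to receptor ratios were added after seeing the data.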

Additional observations from a re-analysis of the deposited data

How the results depend on the processing

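Under the 14 other settings the PDGF receptor genes stayed called: Pdgfra ranged from -0.75 to -0.64 on the log2 scale (highest adjusted p = 0.0360) and Pdgfrb from -0.88 to -0.77 (highest adjusted p = 0.0210). Pdgfa, Pdgfb and Pdgfc stayed above 0 and uncalled (lowest adjusted p = 0.275, 0.527 and 0.417), and Pdgfb had no value under the stricter filter and no adjusted p in DESeq2. Pdgfd was uncalled throughout and ranged from -0.38 to 0.31 with 1 library left out, where it changed sign in 3 of 6 fits, the cause of which was not tested. No pairing by replicate number was seen. Same-numbered deviations from the group means correlated at -0.176, -0.0456 and -0.0161, and 0 of 6 libraries correlated best with their own number. With 3 libraries per group this cannot show that the samples were unpaired. With the replicate number as a block, 28 genes were higher and 151 lower, in place of 497 and 738, and 15 calls of genes named here were lost. They were Pdgfrl, Egr1, Junb, Csf1, Furin, Col1a2, 6330403L08Rik, Stat3, Ptpn1, Col1a1, Nt5e, Tagln, Notch3, Cxcl1 and Mapk3 (adjusted p of 0.0584 for Egr1 to 0.203 for Mapk3). With 1 library left out there were 65 to 722 higher and 256 to 867 lower genes, the low ends without MCH replicate 3 and the high ends without MCH replicate 1. The number of relay genes called lower, 2, was 0 to 4 over the settings, that of PDGF-induced genes called lower, 6, was 3 under the block, and that of processing genes called lower, 3, was 1 under it. The 1 attenuation gene called lower became 0 under the block and without MCH replicate 3 or Control replicate 2 or 3. Without MCH replicate 1, relay and PDGF-induced genes called higher were 1 and 2 in place of 0 and 1, and the 1 relative called higher became 0 under the block. The Pdgfrb to Pdgfra ratio kept its sign in all 7 alternatives (-0.21 to -0.10, exact permutation p from 0.2 to 0.4). The smallest p that this test allows is 0.1 with all 6 libraries and 0.2 with 1 left out. None of the 7 could thus pass at 0.05, and these p-values do not show that the ratio was unchanged. Depth limits Pdgfb (13 to 19 reads per library) and Pdgfd (28 to 78).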
